A study of Zea mays with 9 samples.

Results

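tip4a (LOC541897) and HAK18 (LOC100191398) are 2 of the 30184 genes in the table of normalized counts, and both are also among the 49961 genes in the expression files of the single libraries. They were picked by identifier, with their levels in these same libraries already known. Their levels are therefore a description and carry no p-value. tip4a is annotated on chromosome 6, positions 144263001 to 144265338 of the plus strand, and HAK18 on chromosome 7, positions 46662158 to 46668444 of the minus strand, both in Zm-B73-REFERENCE-NAM-5.0.

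tip4a encodes an aquaporin of the TIP family (tonoplast intrinsic proteins). These are channels in the tonoplast, the membrane around the vacuole, through which water and some small neutral solutes pass between vacuole and cytosol, and in growing leaves the vacuole takes up most of the volume of a cell. HAK18 encodes a member of the KT/HAK/KUP family, carriers that move potassium, the main inorganic cation of the plant cell and one of its principal osmotic solutes, across membranes. Water channels and potassium carriers both take part in setting turgor, the pressure that drives cell expansion.

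The leaves came from seedlings of the maize hybrid CG108 x CG102, aged 9 days, and the study asked how a low ratio of red to far-red light (R:FR) changes leaf gene expression without competition for resources. In the weedy group (W) a surrogate weed around the seedlings gave a biological R:FR of about 0.6. In the far-red group (FR) far-red bulbs and light-emitting diode bars gave an artificial R:FR of about 0.6. The weed-free control (WF) had an R:FR of about 1.5. These ratios are those of the sample labels, and the paper gives a higher ratio for the control and a slightly lower one for both treatments. There were 3 RNA-seq libraries in a group, each made from the pooled second leaves of 3 plants. Nothing in the labels says that the pools of a group came from separate experiments, so every error below is the spread between these pools. All seedlings shared the hybrid, the age and the incoming light quantity, and single plants cannot be seen behind a pool.

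The recovered read totals ran between 22775151 and 40283408 reads a library. Libraries matched their tissue label: the summed level of 18 green leaf genes, photosynthesis genes for the most part, was 102890 to 114840 TPM (a length-corrected share of all transcripts) in W, 100610 to 110690 TPM in FR and 104480 to 105960 TPM in WF. W replicate 3 stood apart, with a root-mean-square log2 distance to the other libraries of 0.909 against 0.576 to 0.650 in the remaining 8. Measured against a gene's log2 average over all the rest, 897 genes were lower in W replicate 3 by 4-fold or more. The remaining 8 libraries each had 16 to 120 such genes. The main values that rest on W replicate 3 are given with and without it.

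The labels of FR and WF carry a doubt. At each replicate number the read total recovered from a library labelled WF lies next to the total that the study lists for its artificial low R:FR library, and the reverse holds for the libraries labelled FR, while the W totals match their own entries. Both kinds of deposited file place the same values under the same label in 9 of 9 libraries. All values below follow the deposited labels. If FR and WF were exchanged, every difference between FR and WF would turn round, and the comparisons of W with WF and of W with FR would change places. tip4a would then be higher under artificial low R:FR than in the control, and HAK18 lower.

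The normalized count used below is the read count of a gene divided by 1 size factor for its library, and TPM also takes gene length into account. tip4a had 364.1, 942.9 and 181.0 normalized counts in W replicates 1, 2 and 3. In FR the counts were 299.9, 1493 and 187.5, and in WF they were 2607, 4135 and 2235. Each of the 6 libraries under low R:FR lay below each of the 3 WF libraries, and the values of W and FR lay among each other. Such a gap without overlap was common: 9.13% of all genes compared had every W library below every WF library, and 17.5% had every FR library below every WF library. The means were 496.0 ± 397.7 in W, 660.3 ± 723.7 in FR and 2992 ± 1007 in WF (SD, n = 3 each), so that the spread in W and FR was nearly as large as the mean or larger.

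On the log2(normalized count + 1) scale, the tip4a difference of W minus WF was -2.86 with a standard error of 0.56. This is a level in WF 7.27-fold that in W. Only 10 of the 23600 genes compared between W and WF had a lower log2 fold change than tip4a. The difference of FR minus WF was -2.72 with a standard error of 0.63, a level in WF 6.58-fold that in FR, and 22 of 23450 genes had a lower value. The median over all genes was -0.05 for W minus WF and 0.01 for FR minus WF. Both differences share the WF libraries, so they are not independent of each other. In bulk leaf RNA, fewer cells that express tip4a and less tip4a RNA in each such cell cannot be told apart.

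W replicate 3 held the lowest tip4a count of all libraries. Without it the difference of W minus WF was -2.30 with a standard error of 0.38. Across the leave-one-out fits it lay between -3.49 without W replicate 2 and -2.30, and that of FR minus WF between -3.60 without FR replicate 2 and -2.11 without FR replicate 3. tip4a stayed lower under low R:FR than in WF in each of these fits.

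The difference between both sources of low R:FR was small against its error for tip4a. W minus FR was -0.15 with a standard error of 0.86, and it changed sign to 0.42 without W replicate 3 and to 0.74 without FR replicate 2. Libraries of W and FR with the same replicate number deviated together over all genes, and with that number as a block the standard error fell to 0.21. Within a number, the level in W over that in FR was 1.21, 0.631 and 0.965 for replicates 1, 2 and 3. Neither source of low R:FR was ahead in all 3 numbers.

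The large spread of tip4a inside the groups had an order. Replicate 2 had the highest count in all 3 groups, at 3.46 times the mean of replicates 1 and 3 in W, 6.13 times in FR and 1.71 times in WF. Of 24093 genes, 1180 (4.9%) had their highest value in replicate 2 of every group. The paper describes a randomized complete block design, but the sources used here do not say whether the number of a library marks a block. With the replicate number as a block, the standard error of the tip4a difference was 0.29 for W minus WF and 0.34 for FR minus WF. Both errors assume that the number pairs these groups, which the data do not show. Over all genes, same-numbered libraries correlated at -0.00699 to 0.124 for W with WF and at -0.00327 to 0.095 for FR with WF. tip4a was covered by 224 to 3236 recovered reads in the 8 libraries whose reads could be recovered. The counting error was at most 6.68% of a value, far below the spread inside the groups.

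HAK18 had 1799, 1421 and 1397 normalized counts in W replicates 1, 2 and 3. In FR the counts were 2304, 1854 and 2358, and in WF they were 1477, 1397 and 1443. Each FR library lay above each library of W and WF, while W and WF overlapped. Over all genes compared, every FR library lay above every WF library for 17.9%, and every W library lay below every FR library for 6.84%. The means were 1539 ± 225.6 in W, 2172 ± 276.4 in FR and 1439 ± 40.5 in WF (SD, n = 3 each). The WF libraries differed by a factor of only 1.06 between the lowest and the highest, against 1.29 in W and 1.27 in FR.

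**Figure D1:**
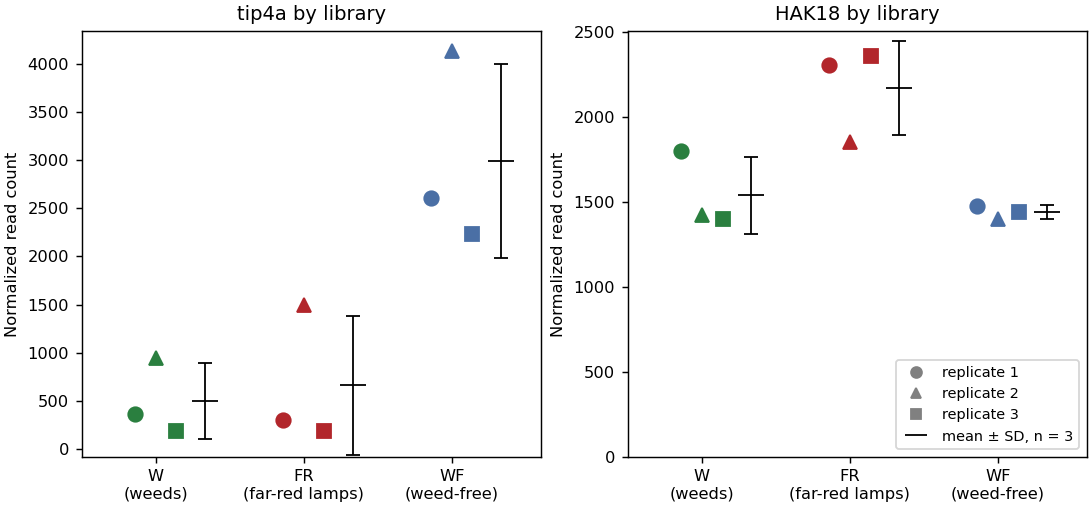
Normalized read counts of tip4a (left) and HAK18 (right) in the 9 libraries, by group (W, FR, WF), on linear axes that include 0. Each symbol is 1 library and its shape is the replicate number; the horizontal dash with error bar is the mean ± SD of 3 libraries. For tip4a all 6 W and FR libraries lie below the lowest WF library, which is at 2235, and the triangles (replicate 2) are highest in every group. For HAK18 all FR libraries lie above the other 6, from 1854 upward.

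The HAK18 difference of FR minus WF was 0.59 on the log2 scale with a standard error of 0.10, a 1.50-fold higher level in FR, and 5.45% of the 23450 genes compared had a higher value. W minus WF was 0.09 with a standard error of 0.13. W minus FR was -0.50 with a standard error of 0.16, a level in FR 1.41-fold that in W, and 9.15% of 23476 genes had a lower value. HAK18 was thus nearer to WF in W leaves than in FR leaves.

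The leave-one-out values of HAK18 lay between 0.52 and 0.70 for FR minus WF and between -0.62 and -0.43 for W minus FR. For W minus WF they lay between -0.03 and 0.15, on both sides of 0. Without W replicate 3 the difference was 0.15 for W minus WF and -0.43 for W minus FR. Within replicate numbers 1, 2 and 3, HAK18 in W was 0.781, 0.766 and 0.592 of the level in FR. HAK18 was covered by 1093 to 3080 recovered reads, with a counting error of at most 3.02%.

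Replicate 2, which was highest for tip4a, was not high for HAK18. Its level was 0.889 of the mean of replicates 1 and 3 in W, 0.796 in FR and 0.956 in WF. The FR library with the highest tip4a count was therefore the FR library with the lowest HAK18 count.

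TPM values allow the levels of both genes to be set side by side. tip4a had 12.6, 33.3 and 5.13 TPM in W, 10.4, 48.2 and 6.70 TPM in FR, and 88.4, 142.5 and 79.8 TPM in WF, for replicates 1, 2 and 3 of each. HAK18 had 26.2, 20.7 and 16.8 TPM in W, 34.2, 24.9 and 35.5 TPM in FR, and 21.0, 19.99 and 21.4 TPM in WF. By length-corrected level, tip4a was above HAK18 in all WF libraries and in replicate 2 of W and FR, and below it in replicates 1 and 3 of W and FR. In TPM the HAK18 difference of W minus WF was 0.01 with a standard error of 0.16 on the log2(TPM + 1) scale.

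Among the TIP aquaporins, 9 genes were in the table. tip1 and tip2a, the other TIP genes of high level, carried most of the summed TPM, and the remaining members were low. tip4a made up 0.951 to 8.92% of the summed TIP level in W and 1.90 to 16.0% in FR, against 19.8 to 34.5% in WF. The summed level was 456.6 ± 83.3 TPM in W, 308.9 ± 40.3 TPM in FR and 408.8 ± 5.73 TPM in WF (SD, n = 3 each). Without tip4a it was 439.6 ± 97.4 TPM in W, 287.2 ± 50.9 TPM in FR and 305.2 ± 30.5 TPM in WF. The W sums ran between 372.9 and 539.4 TPM, the highest in W replicate 3. Without that library the W mean was 415.2 TPM with tip4a and 392.2 TPM without it. The FR sums all lay below the W and WF sums.

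For HAK18 the share of its family moved less. Over the 20 HAK genes in the table, HAK18 made up 9.17 to 11.6% of the summed TPM in W, 12.003 to 14.2% in FR and 11.2 to 12.3% in WF. It was the second most abundant HAK gene in every FR library, after HAK2, and held place 2 to 4 in W and 3 to 4 in WF. The family sum was 200.6 ± 22.8 TPM in W, 238.3 ± 27.0 TPM in FR and 175.9 ± 9.95 TPM in WF (SD, n = 3 each). Without W replicate 3 the mean sum in W was 209.2 TPM and the mean HAK18 share 11.2%. Shares and sums in W replicate 3 include the lowest tip4a share and the lowest HAK18 share of all libraries.

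**Figure D2:**
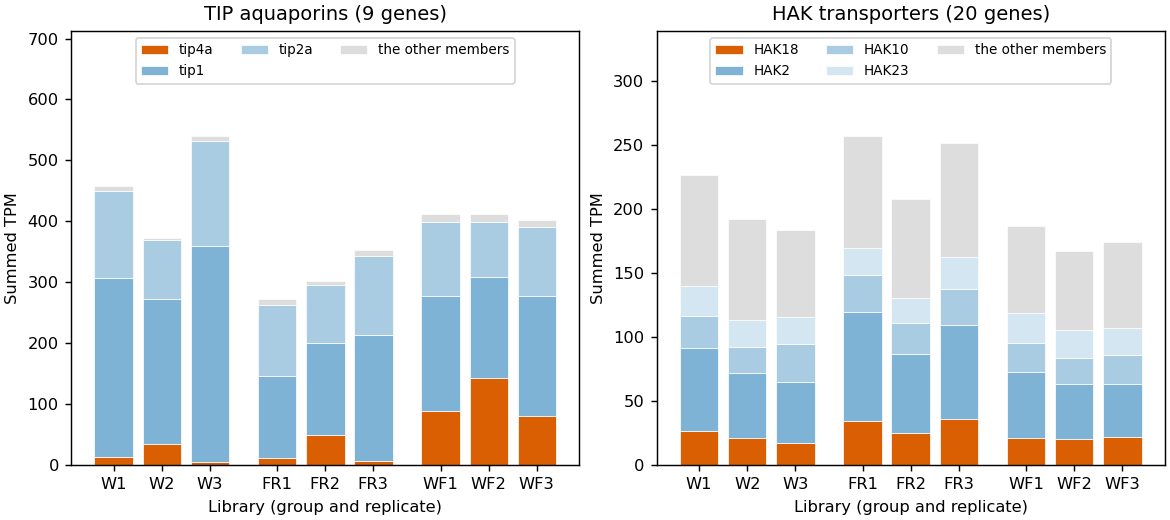
Summed TPM of the 9 TIP aquaporin genes (left) and of the 20 HAK transporter genes (right) in each library, stacked by gene, with the replicate number after the group. The tip4a segment is at the base on the left and reaches 79.8 to 142.5 TPM in WF, against 5.13 to 48.2 TPM in W and FR; the HAK18 segment is at the base on the right and is 24.9 to 35.5 TPM in FR and 16.8 to 26.2 TPM elsewhere.

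The other aquaporins and the other HAK transporters were counted with both genes above left out, and a gene was called at a limma p under 0.1 after Benjamini-Hochberg adjustment over all genes tested. In FR against WF, 5121 of 23450 genes (21.8%) were called, 2341 higher (9.98%) and 2780 lower (11.9%). In W against WF, 11 of 23600 genes (0.0466%) were called, all of them higher, and in W against FR 0 of 23476 (0%). Without W replicate 3 the calls came to 1932 in W against WF and 106 in W against FR.

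Of 23 other aquaporins tested in FR against WF, 8 were called higher and 2 lower, beside 9.98% and 11.9% of all genes. Their median log2 fold change was 0.06 against 0.01 over all genes. The 2 that fell were nip1a, a nodulin-26-like channel, and tip4b, the nearest relative of tip4a by name. nip1a fell by 1.08 ± 0.16 on the log2 scale (SE, limma adjusted p = 0.0074). tip4b had 174.3, 129.6 and 181.4 normalized counts in FR, against 204.1, 301.5 and 219.8 in WF. Its log2 fold change was -0.57 ± 0.18 (SE, limma adjusted p = 0.072). The call on tip4b was lost with TPM values, with the replicate block, with edgeR and DESeq2 on recovered reads, with all 9 libraries in 1 fit and without FR replicate 1, FR replicate 2, WF replicate 2 or WF replicate 3, with adjusted p between 0.10 and 0.41.

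In W, tip4b had 149.2, 60.2 and 136.5 normalized counts, every one below WF, as for tip4a. The difference of W minus WF was -1.15 with a standard error of 0.36 and did not pass (limma adjusted p = 0.39). Without W replicate 3 it was -1.32 and passed (limma adjusted p = 0.077). Replicate 2, where tip4a was highest, held the lowest tip4b count in W and in FR and the highest in WF. Reads shared between tip4a and tip4b were not tested here, and the sequences of both genes were not used.

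The most abundant TIP gene, tip1, did not pass limma in either comparison with WF over all 6 libraries. It had 7087, 5800 and 10446 normalized counts in W, against 4656, 4098 and 4702 in WF, a log2 fold change of 0.75 ± 0.21 (SE, limma adjusted p = 0.34). In FR it had 3264, 3944 and 4819, with a log2 fold change of -0.18 ± 0.13 (SE, limma adjusted p = 0.41). With DESeq2 on recovered reads it passed in W against WF, at 0.81 (adjusted p = 0.058). The W counts of tip1 all lay above WF, where those of tip4a all lay below. Of all genes compared, 8.58% had every W library above every WF library. Without W replicate 3 tip1 passed at 0.52 in W against WF (limma adjusted p = 0.049), and without FR replicate 3 it passed at -0.32 in FR against WF (limma adjusted p = 0.079).

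The 10 aquaporins of the plasma membrane (PIP) are the channels by which water enters and leaves the cell. In FR against WF 5 of them were called higher and 0 lower, beside 9.98% and 11.9% of all genes. PIP1-5 had 2565, 1636 and 2306 normalized counts in FR, against 1161, 898.2 and 987.3 in WF, and pip2b had 4759, 4424 and 5466 in FR, against 3356, 2591 and 2658 in WF. Their log2 fold changes were 1.08 ± 0.16 (SE, limma adjusted p = 0.0074) and 0.77 ± 0.12 (SE, limma adjusted p = 0.0077). The pip2b call was lost with all 9 libraries in 1 fit (limma adjusted p = 0.15). PIP1-1, the most abundant aquaporin by mean TPM, had a log2 fold change of 0.47 ± 0.13 (SE, limma adjusted p = 0.044). Its call was lost with TPM values, with all 9 libraries in 1 fit and without FR replicate 1, WF replicate 2 or WF replicate 3, with adjusted p between 0.12 and 0.33. In FR leaves these PIP genes were higher while tip4a was lower. tip4a was lower in W as well, and the W counts of PIP1-5 all lay above WF, as for 8.58% of all genes. For W minus WF PIP1-5 had 0.99 ± 0.27 (SE, limma adjusted p = 0.33), and it passed with DESeq2 on recovered reads, at 1.06 (adjusted p = 0.021). For pip2b and PIP1-1 the W and WF counts overlapped, at 0.64 ± 0.28 and 0.56 ± 0.25 (SE, limma adjusted p = 0.51 for each).

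Of the 8 NIP and SIP genes tested, 3 were called higher in FR than in WF and 1, nip1a, lower, beside 9.98% and 11.9% of all genes. nip2b, whose NIP2 subgroup is known for silicon transport in rice, had 6950, 6910 and 7435 normalized counts in FR, against 3786, 3387 and 4118 in WF. The groups lay far apart, with a log2 fold change of 0.92 ± 0.09 (SE, limma adjusted p = 0.0025). For W minus WF nip2b had 0.95 with a standard error of 0.21 and did not pass (limma adjusted p = 0.25). It passed at 0.79 without W replicate 3 (limma adjusted p = 0.049) and at 1.18 without W replicate 2 (limma adjusted p = 0.069). With DESeq2 on recovered reads nip2b passed at 0.99 (adjusted p = 0.0039).

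In W against WF, 0 of the 23 other aquaporins were called by limma and 0 by edgeR, with 9 and 10 at an unadjusted p under 0.05, while DESeq2 called 5, all higher. Over all genes, 10.1% in limma and 9.99% in edgeR were at an unadjusted p under 0.05, and DESeq2 called 2.12%. Their median was 0.31 against -0.05 over all genes. Without W replicate 3 limma called 6, of which 3 were higher and 3 lower, beside 8.19% of all genes. In W against FR, limma, edgeR and DESeq2 each called 0 of 23, with 4 at an unadjusted p under 0.05 in limma and 2 in each of the others, beside 8.36% of all genes in limma.

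Of 17 other HAK transporters tested in FR against WF, 7 were called higher and 2 lower, beside 9.98% and 11.9% of all genes. Their median log2 fold change was 0.28 against 0.01 over all genes. HAK2, the most abundant member, had 5207, 4082 and 4352 normalized counts in FR, against 3292, 2729 and 2528 in WF. Its log2 fold change was 0.68 ± 0.12 (SE, limma adjusted p = 0.012), beside the 0.59 of HAK18. HAK3 and HAK11 had 1.37 ± 0.26 (SE, limma adjusted p = 0.014) and 0.91 ± 0.22 (SE, limma adjusted p = 0.030), HAK3 at no more than 36.7 normalized counts in FR and 14.1 in WF. HAK10, HAK7, HAK15 and HAK17 made up the other calls in that direction.

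HAK12 and HAK24 fell in FR. HAK12 had 21.4, 27.9 and 49.0 normalized counts in FR, against 68.9, 66.4 and 91.9 in WF, a log2 fold change of -1.25 ± 0.30 (SE, limma adjusted p = 0.031), and the call was lost without WF replicate 3 (limma adjusted p = 0.12). HAK24 had -0.49 ± 0.12 (SE, limma adjusted p = 0.035), and that call was lost with TPM values, with all 9 libraries in 1 fit and without FR replicate 1 or WF replicate 3. HAK10, at 0.29, lost its call with TPM values, with all 9 libraries in 1 fit and without FR replicate 1 or WF replicate 2, and HAK11 lost its call without FR replicate 1 (limma adjusted p = 0.10). HAK23, which was as abundant as HAK18 in WF, had -0.03 in FR against WF with a standard error of 0.08 (limma adjusted p = 0.84).

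In W against WF, 0 of the 17 other HAK transporters were called by limma and 0 by edgeR, while DESeq2 called 2, both higher. With 0.0466% of all genes called by limma and 2.12% by DESeq2, these counts say little about the HAK genes. In limma and in edgeR 5 were at an unadjusted p under 0.05, beside 10.1% and 9.99% of all genes. Without W replicate 3 limma called 4 of 17, all higher, beside 8.19% of all genes. HAK3 and HAK11 were among them at 1.31 and 0.78. In W against FR, limma, edgeR and DESeq2 each called 0 of 18. At an unadjusted p under 0.05 were 6, 5 and 5, beside 8.36%, 6.92% and 6.57% of all genes. Every W library lay above every FR library for 4 of these 18 genes, against 8.93% of all genes compared, and below for 2, against 6.84%.

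**Figure D3:**
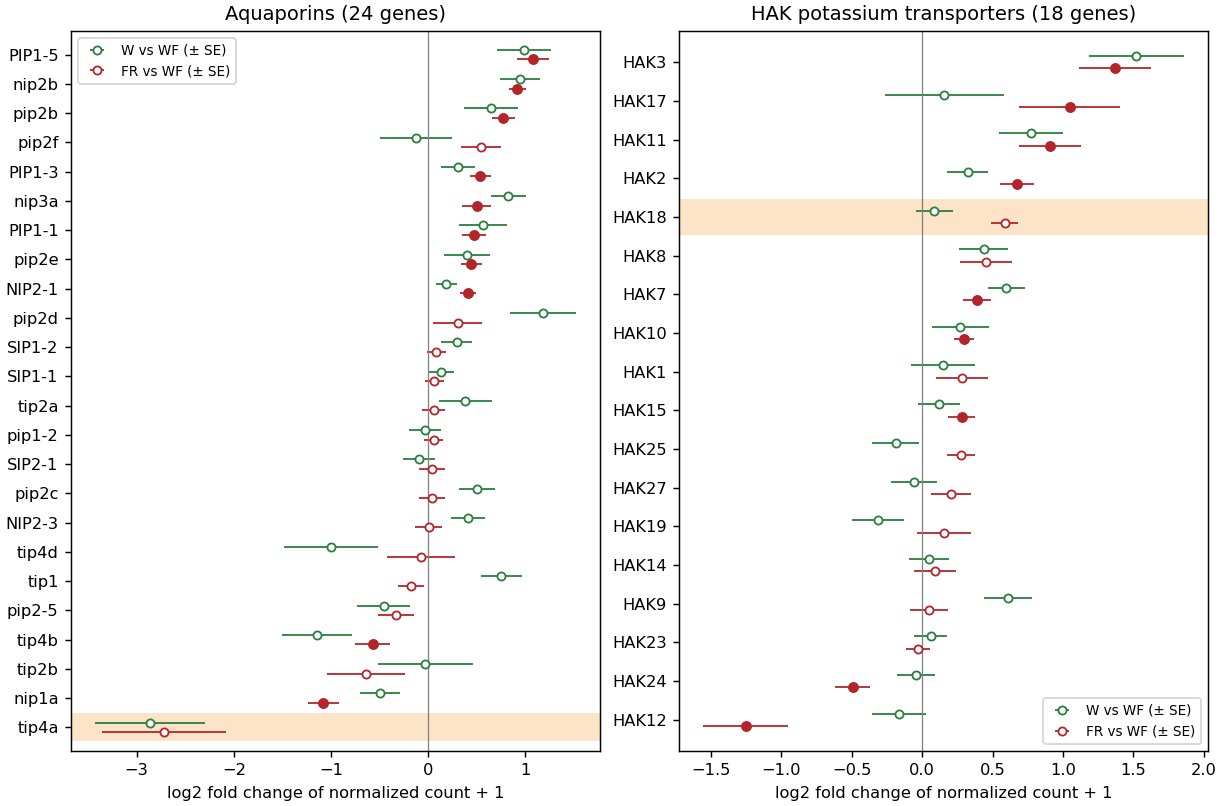
Log2 fold changes of 24 aquaporin genes (left) and 18 HAK transporter genes (right) in W against WF (green, upper point of each row) and in FR against WF (red, lower point), with bars of 1 standard error. Filled points passed limma at an adjusted p under 0.1. tip4a and HAK18, on shaded rows, are drawn open because no test result is given for genes picked with their levels known. tip4a lies below all other aquaporins, at -2.86 and -2.72, and HAK18 is at 0.09 in W and 0.59 in FR.

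Of 23 genes in 4 further lists, limma called 4 (17.4%) in FR against WF, beside 21.8% of all genes. These lists hold potassium channel and HKT genes, proton pumps of the vacuole, exchangers of cations for protons, and CBL and CIPK genes. Of 6 potassium channel and HKT genes 2 were called higher: HKT1, of a family of sodium and potassium carriers, at 0.78 ± 0.11 (SE, limma adjusted p = 0.0059), and kch5, a potassium channel, at 0.36 ± 0.10 (SE, limma adjusted p = 0.048). HKT1 was no longer called with all 9 libraries in 1 fit, and kch5 was not called with TPM values, edgeR, DESeq2, all 9 libraries in 1 fit and without FR replicate 1, WF replicate 1 or WF replicate 2. Of 3 proton-pumping pyrophosphatases of the vacuole, vpp3 was called higher at 0.29 ± 0.07 (SE, limma adjusted p = 0.037). Of 4 exchangers of cations for protons, NHX5 was called lower at -0.27 ± 0.08 (SE, limma adjusted p = 0.047).

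The vpp3 and NHX5 calls were each lost with all 9 libraries in 1 fit, without FR replicate 1 and without WF replicate 1, vpp3 also without WF replicate 3 and NHX5 also without WF replicate 2. Of 10 genes for CBL calcium sensors and the CIPK kinases they bind, which are known to regulate potassium transport, 0 were called by limma. In limma 2 were at an unadjusted p under 0.05, and edgeR and DESeq2 each called 1. The shares over all genes were 30.1%, 23.1% and 19.2%. In W against WF and in W against FR, 0 genes of these 4 lists were called by limma, edgeR or DESeq2. At an unadjusted p under 0.05, limma found 0 genes in W against WF, beside 10.1% of all genes. In W against FR it found 2 of 23 (8.7%), both channel or HKT genes, beside 8.36% of all genes. With W replicate 3 left out, limma called CIPK16 lower in W against WF, 1 of 23 genes (4.35%) beside 8.19% of all genes. In the same setting HKT1 was called lower in W against FR at -0.86 (limma adjusted p = 0.090). That was 1 of 23 genes (4.35%) beside 0.452% of all genes.

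Lists of genes taken by symbol as markers of other tissues differed between FR and WF. All 4 genes of secondary walls were called lower in FR by limma (median log2 fold change -1.16). Of 5 root genes tested 3 were called higher (median 0.96), namely pht1, pht2 and pht3. In the same list pht7 and rth3 were not called (limma adjusted p = 0.13 and 0.38). Whether the genes of this list mark root tissue in leaf pools was not tested. Of 20 genes of dividing and expanding leaf base 7 were called lower and 1 higher. Over all genes, 11.9% were called lower and 9.98% higher. The summed level of 7 root genes was 37.2 to 60.3 TPM in W and 47.7 to 64.6 TPM in FR. In WF it was 30.3 to 34.4 TPM, and none of the 7 was at 0 in any group. Most of that sum came from pht1 and pht3, at a mean of 21.6 and 8.49 TPM in WF. The 4 genes of secondary walls summed to 124.0 to 153.8 TPM in W, 90.9 to 109.0 TPM in FR and 125.9 to 164.3 TPM in WF, so that they were low in the group where HAK18 was high. The 28 genes of dividing and expanding leaf base summed to 424.7 to 486.9 TPM in W, 309.2 to 425.5 TPM in FR and 428.9 to 495.2 TPM in WF, with 1, 2 and 1 of them at 0. Their part in the levels of tip4a and HAK18 was not tested.

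The genes most like tip4a and HAK18 were taken as the 5 with the highest Pearson correlation of log2(normalized count + 1) with each over the 9 libraries, among 18051 genes with a mean of at least 50 normalized counts. These correlations are a description, since the points share their groups and libraries. The 5 genes most like tip4a were LOC103633147 (r = 0.996), LOC100192856 (r = 0.985), LOC109939524 (r = 0.982), LOC100272648 (r = 0.981) and LOC100280334 (r = 0.981), and none carries a name in the annotation used. LOC109939524, on chromosome 5, came closest in the size of its differences, with 19.0, 91.4 and 5.65 normalized counts in W, 15.6, 111.7 and 7.65 in FR, and 136.1, 221.0 and 128.9 in WF. Like tip4a, it was highest in replicate 2 of each group and lower in all W and FR libraries than in WF.

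The remaining 4 had the shape of tip4a at a smaller amplitude. LOC103633147, on chromosome 7, had log2 fold changes of -1.45 for W minus WF and -1.34 for FR minus WF, and LOC100192856, on chromosome 10, had -0.82 and -0.81. LOC100272648 and LOC100280334 differed by less, between -0.50 and -0.46, at far higher counts. With the group means removed, which leaves only the spread inside the groups, the gene most like tip4a was thi1-2 (r = 0.996), which encodes an enzyme of thiamine synthesis and was singled out after its values were seen. thi1-2 had 9188, 19413 and 5019 normalized counts in W, 5498, 17685 and 3968 in FR, and 24643, 35215 and 24659 in WF. It had the order of tip4a between the libraries within W and within FR, was highest in replicate 2 of WF, and its W and FR counts lay below all WF counts.

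The 5 genes most like HAK18 were LOC103626311 (r = 0.986), LOC100383821 (r = 0.978), LOC103653644 (r = 0.970), LOC103626417 (r = 0.966) and LOC100276005 (r = 0.965), again without a name in the annotation used. All were higher in FR than in WF, with log2 fold changes between 0.33 and 0.95, and lower in W than in FR, between -0.66 and -0.25. LOC100383821, on chromosome 4, was nearest to HAK18 in the size of its FR minus WF difference, 0.50 against 0.59. It had 816.7, 669.8 and 677.0 normalized counts in W, 983.4, 821.5 and 969.1 in FR, and 685.8, 659.3 and 613.1 in WF. As for HAK18, replicate 2 was the lowest FR library and replicate 1 the highest W library.

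**Figure D4:**
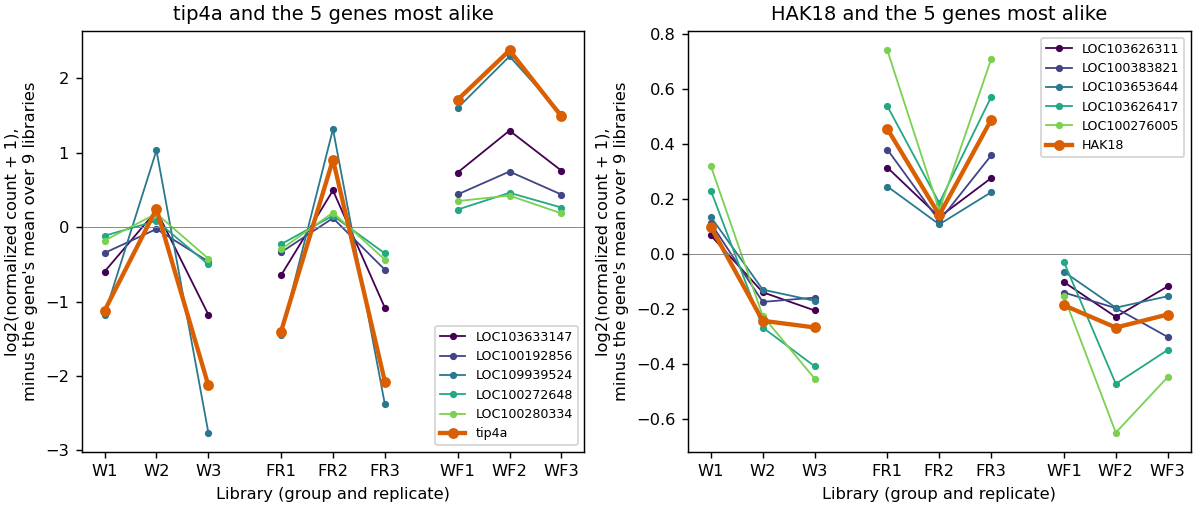
log2(normalized count + 1) of tip4a (left) and HAK18 (right), thick lines, and of the 5 genes most like each, thin lines, in the 9 libraries, each gene minus its own mean. Points of 1 group are joined only to show the shape. On the left all genes peak in replicate 2 of each group and have their highest mean in WF; on the right all have their highest mean in FR, with replicate 2 the lowest FR library.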

How the data were processed

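RNA of 9 leaf pools was sequenced by the study. Sources differ on the processing: the paper's methods name STAR, featureCounts and DESeq2, and the notes of the submitters give DESeq2 1.30.1, HTSeq 0.13.5 and Bowtie2 2.4.3. The main table that the authors deposited is a signal table with 30184 genes: counts over 1 DESeq2 size factor a library. Per library the authors also deposited coverage (a signal value), FPKM and TPM values. The deposited comparison tables hold the authors' fold changes and p-values and were not used.

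The log2(value + 1) of these normalized counts was used, and genes with at least 10 in at least 3 of 6 libraries were compared with limma 3.58.1 (variance trend, Benjamini-Hochberg over all genes tested, threshold 0.1). Pairs of groups were fitted on their own 6 libraries. Standard errors are those of this fit. Whole reads were recovered for 8 libraries (tolerance 0.01) and tested with edgeR 4.0.16 and DESeq2 1.42.0, with FR replicate 2 left out because 1 read there is worth 0.997. Library depth is given in the report. R 4.3.3, Python 3.11.15, pandas 2.3.3, numpy 2.4.6 and matplotlib 3.10.9 were used. The script was tested on simulated data.

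Names and positions are from RefSeq of Zm-B73-REFERENCE-NAM-5.0, to which 29125 identifiers matched. Lists were drawn from gene symbols and synonyms. The 2 genes, the lists and the tests were chosen with earlier results of these data known. Named genes are tip4a and HAK18, up to 3 called members per list, direction and comparison by smallest adjusted p, the 3 most abundant other aquaporins and HAK genes, and the 5 genes most like each of tip4a and HAK18. tip2a, pht7, rth3 and the genes named only for being called or lowest lie outside this rule and were named after their values were seen.

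Replicate numbers were checked for pairing by the correlation of same-numbered deviations from the group means. Between W and FR it was 0.124, 0.255 and 0.146 for numbers 1, 2 and 3, and the numbers were taken to pair these groups. Alternatives were pseudocounts of 0.5 and 5, no filter, TMM, TPM, all 9 libraries in 1 fit, the replicate block, leaving out each library, edgeR and DESeq2, and for lists and named genes some of these were added after seeing the data.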

Additional observations from a re-analysis of the deposited data

How the results depend on the processing

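The log2 fold changes of tip4a and HAK18 moved by less than the spread between replicates under every limma alternative run. edgeR and DESeq2 were not used for these 2 values. For tip4a, leaving out 1 library gave -3.49 to -2.30 in W against WF, -3.60 to -2.11 in FR against WF and -0.77 to 0.74 in W against FR, and for HAK18 it gave -0.03 to 0.15, 0.52 to 0.70 and -0.62 to -0.43.

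Counts of called genes moved more. In W against WF, 11 calls became 50 with TPM values, 94 with all 9 libraries in 1 fit, 501 with DESeq2 and 0 to 1932 without 1 library, the highest without W replicate 3. In FR against WF, 5121 became 1134 with all 9 libraries and 2334 to 5408 without 1 library. In W against FR, 0 became 24 with a pseudocount of 5, 18 with TPM values, 263 with all 9 libraries, 262 with DESeq2 and 0 to 106 without 1 library. Called other aquaporins came to 5 with DESeq2 and 0 to 6 without 1 library in W against WF, where 0 were called, and to 4 with all 9 libraries and 6 to 12 without 1 library in FR against WF, where 10 were. Called other HAK transporters came to 2 with DESeq2 and 0 to 4 without 1 library in W against WF (0 called), and to 4 with TPM values, 4 with all 9 libraries and 5 to 9 without 1 library in FR against WF (9 called). The causes were not tested.

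With the replicate number as a block, calls were 1 in W against WF, 5120 in FR against WF and 0 in W against FR. Same-numbered correlations were 0.124, -0.00699 and 0.0558 for W with WF and -0.00327, 0.0826 and 0.095 for FR with WF, so the data do not show that the number pairs those groups, and not every library correlated best with its own number. Whether the number marks a block of the study's design was not stated in the sources used here. With 3 pools a group, 1 pool can set a standard error, and the exchange of FR and WF labels described above touches each comparison.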

Other observations

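The 4 genes of water and potassium transport given here lie outside the naming rule and were chosen after their values were seen. kch4, a potassium channel gene, had 4.04 normalized counts in W replicate 3, against 196.0 and 203.5 in W replicates 1 and 2, 171.5 to 204.4 in FR and 159.7 to 166.5 in WF. HAK5, a HAK gene whose Arabidopsis namesake takes up potassium in roots when it is scarce, had 58.9 normalized counts in FR replicate 3, against 12.7 and 6.98 in FR replicates 1 and 2, 0.808 to 11.4 in W and 1.28 to 6.63 in WF. pip2d, an aquaporin of the plasma membrane, had 2188, 1056 and 2260 normalized counts in W, against 890.8, 546.9 and 917.2 in WF, a log2 fold change of 1.18 (standard error 0.34) that did not pass limma (adjusted p = 0.34). HAK9 had 802.8, 629.3 and 647.1 normalized counts in W, against 442.3, 385.9 and 538.2 in WF, at 0.61 (standard error 0.17), which did not pass either (limma adjusted p = 0.33), and its log2 fold change in FR against WF was 0.05 (standard error 0.14).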
